A study of Homo sapiens with 6 samples.

Results

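MYC and 6 cyclin genes (CCND1, CCND2, CCND3, CCNE1, CCNA2 and CCNB1) were examined for NFATc2 islands in untreated THP-1 cells, a human monocytic acute myeloid leukaemia (AML) line with an MLL-AF9 fusion. The genes were taken by name, and islands were assigned to them by hg19 position to the nearest 0.01 Mb, with a reach of 5 kb plus the 5 kb by which such a position can be off. Of the 32760 islands in the list, 6 lay within reach of the 7 genes. They were 1 island at MYC and 5 islands at CCND3, whereas CCND1, CCND2, CCNE1, CCNA2 and CCNB1 had none. An island is a stretch in which chromatin immunoprecipitation (IP) gave more reads than unprecipitated input DNA once input was scaled to the lower depth of the IP.

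The experiment had 3 NFATc2 IP libraries, precipitated with a rabbit antibody to NFATc2 (NFAT1) from 11000000 cells per IP after fixation in 1% formaldehyde for 10 min, and 3 Input DNA libraries. All 6 came from the same untreated line, and the authors called islands on all of them together. The list therefore holds 1 value per island and none per library, so the spread between replicates cannot be given, and the intervals below cover counting error only. Input libraries together were 1.78 times as deep as the IP libraries by the caller's own scaling. The median island was 4800 bp wide and held 148 IP reads and 198 input reads. THP-1 identity could not be checked against marker genes, because the list holds no expression values.

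NFATc2 is a calcineurin-dependent transcription factor of the nuclear factor of activated T cells family, whose DNA-binding domain recognises the core letters GGAAA. MYC is a transcription factor that drives growth and entry into the cell cycle. D-type cyclins activate CDK4 and CDK6 in G1, cyclin E1 activates CDK2 at the G1/S transition, cyclin A2 acts in S and G2, and cyclin B1 activates CDK1 for mitosis. The comparison asks whether chromatin at these genes was enriched in the NFATc2 precipitate over input.

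Promoter letters from RefSeq (build GRCh38.p14) were at hand for 4 of the 7 genes, at 6 gene starts, and not for MYC, CCND1 or CCND2. This build differs from that of the islands, so no island was placed on them. A GGAAA on either strand, read as GGAAA or TTTCC, was found in the 250 bases before 3 of these 6 starts, and in 55.6% of all 35116 starts. The E-box letters CACGTG, which MYC recognises and which read the same on both strands, were found before 1 of the 6 (CCNB1) and in 6.34% of all starts. The bases before the CCNB1 start, and those before the CCND3 start at 42048689-42048938, overlap an exon of the same gene. The first sequence is shown for the gene with 5 islands within reach (1 of its 3 starts) and the second for a gene with none. Capitals mark GGAAA or TTTCC.
CCND3, chr6:41941809-41942058, minus strand: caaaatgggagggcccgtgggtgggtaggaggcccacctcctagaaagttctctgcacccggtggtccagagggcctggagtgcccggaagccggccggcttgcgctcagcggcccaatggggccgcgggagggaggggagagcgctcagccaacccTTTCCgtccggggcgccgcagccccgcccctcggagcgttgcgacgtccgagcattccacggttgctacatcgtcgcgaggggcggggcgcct
CCNA2, chr4:121823884-121824133, minus strand: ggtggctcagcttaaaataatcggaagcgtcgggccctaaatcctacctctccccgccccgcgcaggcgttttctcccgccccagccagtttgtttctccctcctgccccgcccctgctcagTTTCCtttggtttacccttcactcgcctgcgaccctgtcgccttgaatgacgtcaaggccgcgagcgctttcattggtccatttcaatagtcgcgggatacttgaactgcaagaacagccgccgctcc
Both windows were shown because they hold a match, and the other 2 starts of CCND3 and the start of CCNE1 had none. A match of 5 letters is a description of the sequence and not a binding site.

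At MYC, NFATc2 IP was enriched over input in 1 island on chromosome 8, from 128754601 to 128758600. It held 108 IP reads and 107 input reads over 4000 bp, which is a log2 fold change (log2FC) of 0.85 once input is scaled to the IP depth, with a 95% counting interval from 0.45 to 1.24. The authors' −log10 false discovery rate (FDR) for it was 6.67. The island began 4.6 kb from the stated position of MYC (128.75 Mb) on the side of higher coordinates, the direction in which MYC is transcribed. Whether it starts inside the gene or beyond its end cannot be told from a position given to 0.01 Mb.

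The MYC island ranked 1317th by fold among all 32760 islands, with 4.02% of islands above it, and 32nd among the 423 islands of chromosome 8. Its fold lay below the log2FC of 1 above which the study kept peaks, and the counting interval included that threshold. Over the whole list, 1.58% of islands were above 1. None of the 6 islands at MYC and CCND3 was. Above 0.5, where 29.4% of all islands lay, was 1 of the 6, the MYC island.

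The fold at MYC went with few input reads rather than with many IP reads. The island held 27.0 IP reads per kb, where the median of all islands was 31.6, and 8.94% of islands had fewer. It held 26.8 input reads per kb, against a median of 42.1 over all islands and 38.5 on chromosome 8, and only 0.473% of all islands had fewer. The part that input density plays in the fold was not tested. An island 4000 bp wide at this input density would need a log2FC of 0.32 to reach the weakest p in the list.

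**Figure D1:**
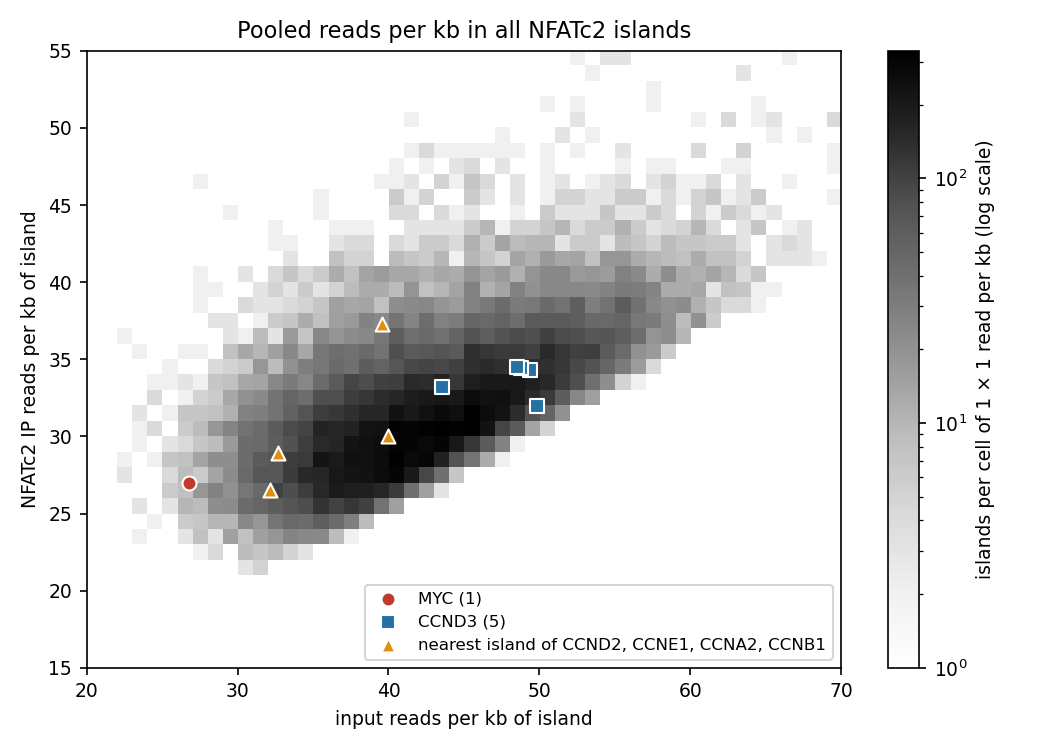
Input reads per kb (x axis) against NFATc2 IP reads per kb (y axis) for the pooled libraries, with grey cells for the number of islands on a log scale (32231 of 32760 lie within the axes). The MYC island (red circle) sits at the low-input edge, at 26.8 and 27.0 reads per kb, and the 5 CCND3 islands (blue squares) lie at 43.6 to 49.9 input reads per kb. Orange triangles are the nearest islands of CCND2, CCNE1, CCNA2 and CCNB1, all beyond reach.

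The MYC island stood alone. No other island lay within 1 Mb of MYC on either side, and the neighbouring islands were 2583 kb away on the lower side and 1791 kb away on the higher side. This made 0.50 islands per Mb around MYC against 2.90 on chromosome 8 and 10.7 over all chromosomes. Over the list, 110 islands (0.336%) had no other island within 1 Mb, 13 of them on chromosome 8. The median log2FC of the 110 was 0.68, with quartiles of 0.48 and 1.07, and 35 of them had a higher fold than the MYC island. On chromosome 8, 2 of the 13 did. Such islands also tended to low input, with medians of 33.5 input and 29.0 IP reads per kb for the 13. For the 110 the medians were 37.6 and 32.4. The nearest island above a log2FC of 1 was 3198 kb from MYC on the lower side, with a value of 1.31.

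CCND3, the D-type cyclin gene with the longest stated interval (41.90 to 42.02 Mb on chromosome 6), had 5 islands, all inside that interval. CCND3 is transcribed towards lower coordinates. Its RefSeq starts in GRCh38 lie far apart, with the bases before them at 41941809-41942058 and at 42048689-42048938, among others. These are not hg19 positions, so they cannot be set beside the interval or the islands. Whether the islands lie upstream or downstream of a given start was not determined. The islands lay in its middle and upper part, the first beginning 46.4 kb above the lower end and the last ending 11.4 kb below the upper end, with gaps of 4.6 to 15.2 kb between them. Together they covered 30.8 kb, or 22% of the interval with its reach on both sides.

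The 5 CCND3 islands were weaker than that at MYC by their point values. The first, from 41946401 to 41954800, held 288 IP reads and 415 input reads, with a log2FC of 0.30 (interval 0.08 to 0.53). The second, from 41959601 to 41962400, was the narrowest, with 93 IP reads, 122 input reads and a log2FC of 0.44 (0.04 to 0.84). The third, from 41967001 to 41975400, held 289 and 410 reads and stood at 0.33 (0.11 to 0.55). The first island and this one were thus equally wide (8400 bp) and nearly equal in both read numbers. The fourth, from 41982201 to 41989400, had the lowest fold, 0.19 (-0.06 to 0.43) from 230 IP and 359 input reads, and its −log10 FDR of 1.40 was close to the list's limit of 1.3. The fifth, from 42004601 to 42008600, held 138 and 194 reads, with a log2FC of 0.34 (0.01 to 0.66). Read densities were similar in the 5 islands, from 31.9 to 34.5 IP reads per kb and from 43.6 to 49.9 input reads per kb. Densities between the islands are not known, since the list holds no reads there.

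The lower counting bound was above 0 in 5 of the 6 islands at MYC and CCND3, the fourth island of CCND3 being the exception, and in 75.2% of all islands. Every listed island had passed an FDR for IP over input on the same reads. A bound above 0 was thus largely fixed by entry to the list and is no separate support. A lower bound above 1 was found in none of the 6 and in 0.183% of all islands. With reads summed over the 5 islands (1038 IP and 1500 input), CCND3 had a log2FC of 0.30 (0.19 to 0.42). This sum treats 5 islands as 1 region and is not set against the single island at MYC. The fold needed to reach the weakest p of the list depends on input density. For an island 4000 bp wide it was 0.32 at the density of the MYC island itself, the only island within 1 Mb. It was 0.23 at the median density of the 43 islands within 1 Mb of CCND3. The value for MYC thus rests on the same input reads as its fold and is no separate limit of detection. In pairwise tests of single islands, none of the 15 pairs among the 6 islands passed after adjustment (Fisher's exact test on IP and input reads, two-sided, Benjamini-Hochberg). The lowest adjusted p was 0.072, for MYC against the fourth CCND3 island, which differed by 0.66 (95% interval 0.20 to 1.11). Of the 15 pairs, 3 had an unadjusted p below 0.05, all of them between MYC and a CCND3 island. Among the CCND3 islands themselves the differences ran no higher than 0.25, with intervals that all included 0. The median log2FC of the 6 islands was 0.33, and that of all islands 0.39.

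**Figure D2:**
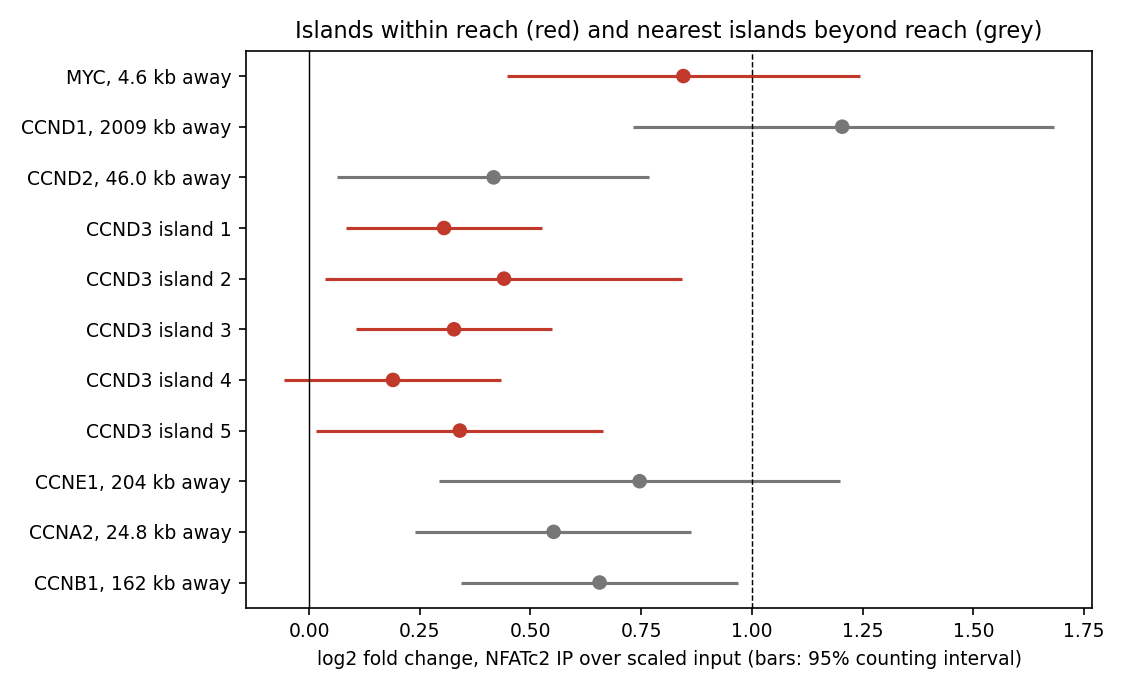
NFATc2 enrichment over input as log2FC (x axis) for the 6 islands within reach of MYC and CCND3 (red) and for the nearest island of each other gene, beyond reach (grey, with its distance in kb), with bars for the 95% counting interval and a dashed line at 1. The CCND3 islands lie between 0.19 and 0.44 and the MYC island at 0.85, and the only point beyond 1 is the island 2009 kb from CCND1.

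Islands around CCND3 were denser than over all chromosomes but sparser than on its own. Within 1 Mb of its interval there were 43, or 20.3 per Mb, against 10.7 per Mb over all chromosomes and 30.6 per Mb over chromosome 6. Windows of 140 kb, as wide as the CCND3 interval with its reach, held a median of 5 islands on chromosome 6 (quartiles 1 and 7), and 81.5% held at least 1, as did 49.9% over all chromosomes. A count of 5 at CCND3 was thus that of a typical stretch of this chromosome. The strongest island within 1 Mb was 903 kb away on the higher side, with a log2FC of 1.21 (0.95 to 1.48) from 271 IP and 208 input reads in 2200 bp.

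CCND1, whose protein starts the passage from G1 to S, had no island within reach and none within 1 Mb. It lay in a stretch of 6.63 Mb without any island, on chromosome 11 from 67450601 to 74078400. This was the 2nd longest of 400 stretches between neighbouring islands on that chromosome and the 21st of 32736 over all chromosomes. Its copy number and how well reads align in it were not tested, so lack of islands there is not read as lack of NFATc2. The island nearest to CCND1, 2009 kb away on the lower side, was only 400 bp wide and dense in both kinds of library, with 220 IP reads and 170 input reads per kb. Its log2FC was 1.2 (0.73 to 1.68) from 88 IP and 68 input reads. On the higher side the nearest island was 4618 kb away, at 0.72.

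CCND2, another D-type cyclin gene (4.38 to 4.41 Mb on chromosome 12), lay between an island 83.8 kb below it and one 46.0 kb above it. The lower island held 190 IP and 210 input reads, with a log2FC of 0.69 (0.40 to 0.98). The upper one held 120 and 160 reads, with 0.42 (0.06 to 0.77). Islands were sparser here than elsewhere on the chromosome, at 4.93 per Mb within 1 Mb against 11.4 per Mb on chromosome 12. Of the 10 islands within 1 Mb, 2 were above a log2FC of 1. They lay 477 kb below the gene at 1.04 and 860 kb above it at 1.21, with 24.7 input reads per kb each.

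CCNE1 had its nearest islands 204 kb above and 337 kb below its stated position on chromosome 19. The nearer held 82 IP and 87 input reads in 2200 bp and stood at 0.75 (0.29 to 1.2), and the farther held 211 and 295 reads and stood at 0.35 (0.09 to 0.61). There were 9 islands within 1 Mb, 1 of them above a log2FC of 1, at 645 kb with 1.09. With 4.50 islands per Mb the surroundings were close to the chromosome as a whole (3.84 per Mb).

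CCNA2, on chromosome 4, was the gene with the nearest island outside reach, 24.8 kb above its stated position. CCNA2 is transcribed towards lower coordinates, so this island lies on its upstream side. It spanned 6000 bp with 159 IP and 193 input reads and a log2FC of 0.55 (0.24 to 0.86). The nearest island on the other side, 105 kb away, stood at 0.76 (0.39 to 1.13). CCNA2 had 30 islands within 1 Mb, or 15 per Mb against 12.1 on chromosome 4, and none of the 30 exceeded a log2FC of 0.77.

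CCNB1, on chromosome 5, had islands on one side within 1 Mb. All 9 islands within 1 Mb were on its lower side, the nearest 162 kb away with 162 IP and 183 input reads and a log2FC of 0.66 (0.34 to 0.97). On the higher side no island was listed for 2210 kb. Islands were sparse around CCNB1, at 4.50 per Mb against 14.1 per Mb on chromosome 5. The stretch without islands that holds CCNB1 was 2372 kb long, the 2nd longest of 2549 on chromosome 5, whose median was 28.2 kb. Without reads outside islands, its copy number and how well reads align in it were not tested. Lack of islands there is not read as lack of NFATc2.

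By the fold of the nearest island at any distance, the genes ran from CCND1 (1.2) through MYC (0.85), CCNE1 (0.75), CCNB1 (0.66), CCNA2 (0.55) and CCND3 (0.44) to CCND2 (0.42). Only the islands of MYC and CCND3 lay within reach, so this order does not rank enrichment at the genes. For CCND3 the island nearest the middle of its interval was taken, which had the highest fold of its 5 islands. Summed over the 5, CCND3 stood at 0.30, below CCND2. No neighbours in this order differed beyond counting error. The adjusted p was 0.59 for CCND1 against MYC, with a difference of 0.36 (95% interval -0.24 to 0.96), and higher for the other neighbours (Fisher's exact test, two-sided). Of all 21 pairs, none passed after Benjamini-Hochberg adjustment, and 3 had an unadjusted p below 0.05, each of them between CCND1 and another gene (CCND2, CCND3 or CCNA2). The widest intervals of these differences spanned over 1 on the log2 scale, so the tests do not show that the islands were enriched alike.

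Having an island at 2 of the 7 genes was close to what the chromosomes gave. Of windows 20 kb wide, the size used for a gene with a single stated position, 21.2% held an island over all chromosomes. The share was 6.19% on chromosome 8 (MYC), 5.95% on chromosome 11 (CCND1), 8.12% on chromosome 19 (CCNE1), 25.7% on chromosome 4 (CCNA2) and 29.3% on chromosome 5 (CCNB1). For windows of 50 kb, as wide as that of CCND2, it was 33.8% over all chromosomes. Summed over the 7 genes, each with its own chromosome and width, the shares gave 1.92 genes. For the 5 genes without an island, the fold needed to reach the weakest p of the list was worked out from nearby islands. The input density was the median of the listed islands within 1 Mb (for CCND1, of all those on chromosome 11). At that density an island 4000 bp wide would need a log2FC of 0.26 to 0.28. One 2000 bp wide would need 0.36 to 0.38, and one 8000 bp wide 0.19 to 0.20. Reads at the genes themselves are not in the list, so the limit of detection there is not known.

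The rest of the cell cycle machinery was read the same way, from a list of 20 genes. Of these, 4 had an island within reach and 16 had none, where the windows of their chromosomes and widths gave 7.80. None of the 5 islands at the 4 genes was above a log2FC of 1, and their median was 0.33. Among the kinases, CDK6, the partner of D-type cyclins, had an island 0.60 kb below its interval with 142 IP and 171 input reads and a log2FC of 0.56 (0.23 to 0.89). An island above the threshold lay 26.8 kb from CDK6, at 1.21. CDK1, CDK2 and CDK4 had none, at distances of 13.8, 50.4 and 63.8 kb. The windows of the 4 kinase genes gave 1.41 genes with an island.

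Among the retinoblastoma proteins and their target, RBL1 (p107) held 1 island with a log2FC of 0.73 (0.37 to 1.09) from 127 IP and 136 input reads, the highest fold in the list of 20. RB1 had 2 islands, one inside its interval at 0.26 (0.01 to 0.51) and one 5.60 kb above it at 0.26 (-0.04 to 0.56). E2F1, a transcription factor that RB1 holds in check, had none within 34.0 kb. The windows of these 3 genes gave 1.70. Of the 5 genes for CDK inhibitors only CDKN1A (p21) had an island within reach, 8.20 kb below its interval at 0.33 (-0.02 to 0.68). The windows of the 5 genes on their chromosomes gave 1.56 genes with an island, and 66.6% of windows as wide as that of CDKN1A held one on chromosome 6. CDKN2A and CDKN2B, neighbours on chromosome 9, shared a stretch of 2331 kb without islands. The list holds no reads outside islands, so the copy number of this stretch in the line was not tested. Lack of an island there is therefore not read as lack of NFATc2.

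No island lay within reach of the other cyclin genes (CCNE2, CCNA1 and CCNB2), of CDC25A and SKP2, or of the MYC family. MYCN, MYCL and MAX, the partner with which MYC binds DNA, had their nearest islands 531, 399 and 471 kb away. With MYC, 1 of these 4 genes had an island within reach, where the windows on their chromosomes gave 1.2.

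**Figure D3:**
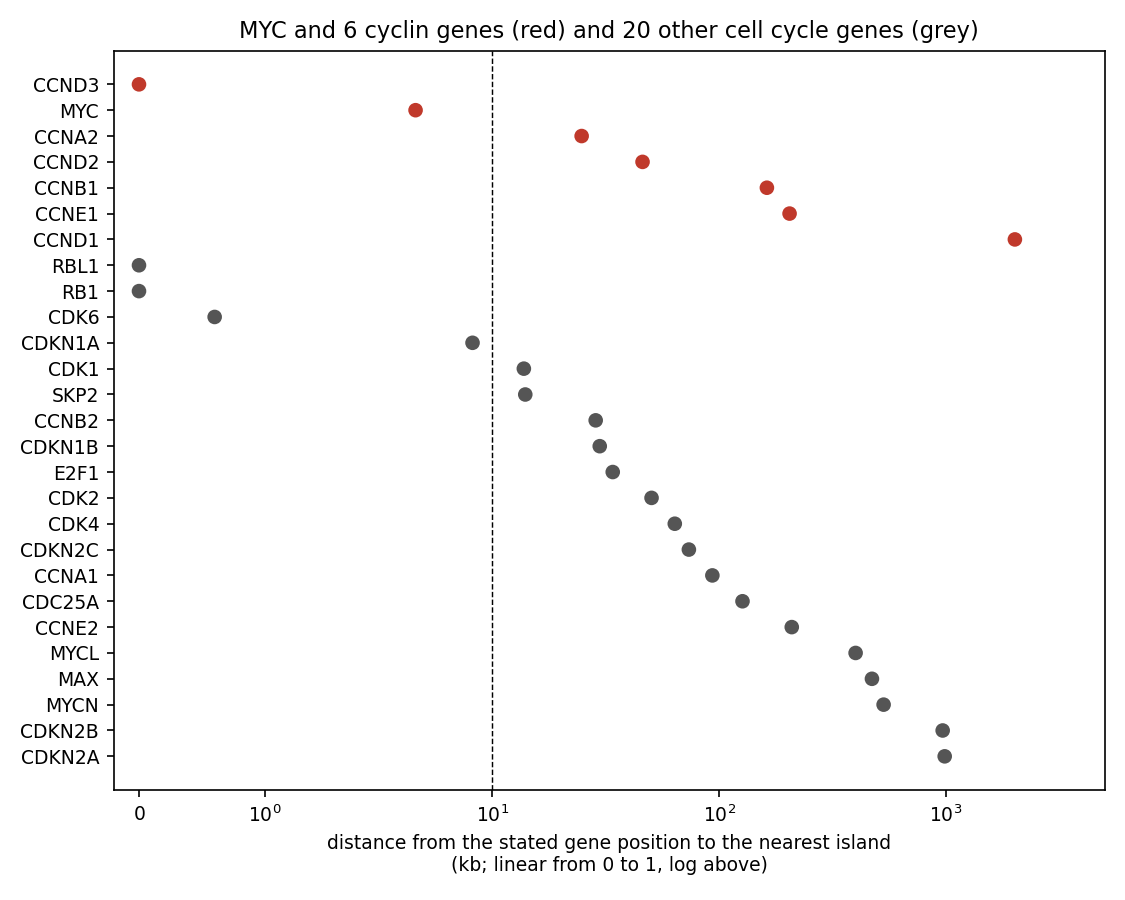
Distance in kb from each stated gene position to the nearest NFATc2 island (x axis, linear from 0 to 1 and logarithmic above) for MYC and the 6 cyclin genes (red) and 20 other cell cycle genes (grey), with a dashed line at the reach of 10 kb. CCND3 and MYC are the red points left of the line, and CCND1, at 2009 kb, is farther from an island than any other gene shown.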

How the data were processed

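The authors trimmed, aligned and called the reads. Per the submitters' processing notes, hg19 was the genome build, and the tools were ChIPseeker (1.18.0), SICER (0.0.52), SAMtools (1.3.1), BWA (0.7.17.1) and Trimmomatic (0.36.5), listed without order, and the paper names epic2 as the caller. The deposited list, at FDR below 0.05, gives each island a score, which is 100 times its log2 value without the decimals. It also gives the deposited log2 ratio of IP to scaled input reads, and the −log10 p and −log10 FDR as the caller wrote them. It pools 3 NFATc2 IP and 3 Input DNA libraries and was used as deposited, without the authors' later removal of blacklisted regions.

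IP and input reads were worked out from the deposited log2 ratio and −log10 p by inverting the Poisson formula of the caller. Input was whole within 0.02 in 32751 islands at a scaling of 0.5618 IP reads per input read. On 1803 simulated islands both numbers were recovered in 100%. These were made with the same formula and scaling, so this checks the inversion and not whether the caller used them. Intervals are exact Clopper-Pearson at 95%, and those of differences are normal on the log2 scale. Reads are not independent molecules, so both cover counting error only.

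Gene positions in hg19 are approximate, since no hg19 annotation was used. Those of the 20 other genes came from general knowledge. All 7 genes and all 20 others are named. Members and lists were chosen with earlier results of these data known. Windows run from the first base to the last island of each chromosome, gaps in the assembly included. Genes were not assigned by distance to a start site. Plots were drawn with matplotlib 3.10.9, and pandas 2.3.3, scipy 1.17.1 and numpy 2.4.6 were used under Python 3.11.15.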

Additional observations from a re-analysis of the deposited data

How the results depend on the processing

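The number of the 7 genes with an island was 2, and that of islands 6, with a reach of 5 kb, of 10 kb and of 20 kb. With a reach of 50 kb, CCNA2 and CCND2 each gained 1 island and CCND3 rose from 5 to 7, which gave 4 genes and 10 islands, and 9 in place of 4 of the other cell cycle genes. At FDR below 0.001, 3 islands remained at MYC and CCND3 and 2 other cell cycle genes had one. None of the 6 islands was above a log2FC of 1, also with the lower counting bound, and 1 (that of MYC) was above 0.5, as were 29.4% of all islands. Every other alternative run stayed within 1.5 times the value given, and the pairs among the 6 islands were added after the data were seen. No paired analysis was possible because libraries are merged in these values, and for the same reason no library could be left out. Depth limits single folds: the interval at MYC ran from 0.45 to 1.24.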
